A study of Homo sapiens with 12 samples.

Results

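The comparison described here is that of light polysomes from wild-type (WT) MCF10A cells after 10 Gy with light polysomes from mock-treated WT cells. It takes 2 of the study's 12 arrays, the only ones of that fraction and genotype, and covers the 10157 genes that passed a filter on low intensity. Each condition is 1 array, so no value below has a replicate error, no difference was tested, and "higher" or "lower" describes these arrays. MCF10A cells are commonly regarded as mammary epithelium that does not form tumours, although the labels name breast cancer as their origin. The irradiated cells received 10 Gy from a linear accelerator, and the cells they are set against were mock-treated. The other arrays held the heavy polysome pool and total RNA of WT cells under both treatments, and the same set of preparations from cells in which eIF4G1 was silenced through a doxycycline-inducible short hairpin RNA. The sources used here do not give the time between irradiation and harvest, nor whether the WT cells had a control hairpin or were given doxycycline. They give ribosome numbers for the mock WT pools only, 1 to 3 per mRNA in the light pool and 4 or more in the heavy pool.

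A light polysome pool holds mRNAs that carry few ribosomes. An mRNA enters it by recruiting its first ribosomes, leaves it for heavier fractions when initiation quickens, and stays in it when its coding sequence is too short to hold more. Ionising radiation breaks DNA and activates the transcription factor p53, whose target genes arrest the cell cycle, repair DNA or kill the cell. Damaged cells also lower protein synthesis in general while some mRNAs keep or gain ribosomes.

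The WT mock light array stood apart from the other 11 before any gene was considered. The WT 10 Gy light array gave the lowest value of all 12 arrays for 8.08% of the genes and the highest for 9.86%, whereas the WT mock light array did so for 24.5% and 24.7%. Over the genes kept, log2 values of the WT 10 Gy light array correlated with the 4 total RNA arrays at 0.824 to 0.862 and those of the WT mock light array at 0.681 to 0.712. The knockdown light arrays lay at 0.814 to 0.859. Every result below rests on the WT mock light array and none can be given without it. The ratio of 3' to 5' signal, which rises as RNA is broken, was 1.51 on the log2 scale after 10 Gy and 1.27 in mock for ACTB, and 0.42 after 10 Gy and 0.28 in mock for GAPDH. A control probe set named HUMRGE, 5' end, read 2167 after 10 Gy and 4746 in mock. The part of these array properties in the results was not tested. Basal mammary markers read alike in both pools, with 7 of 8 at or above an intensity of 64 in each, a summed intensity of 16734 after 10 Gy and 19355 in mock, and KRT5 at 6739 after 10 Gy and 7729 in mock. Of the marker lists of other cell types, 4 of 10 luminal, 2 of 10 fibroblast, 1 of 8 endothelial and 1 of 7 leukocyte genes reached 64 after 10 Gy, against 5, 2, 1 and 2 in mock.

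Of the 10157 genes, 1620 (15.9%) were at least 2-fold higher in the light pool after 10 Gy than in the mock light pool, and 421 (4.14%) were at least 2-fold lower. The values are log2 differences of deposited intensities, 10 Gy minus mock, and a difference of 1 is 2-fold. The median difference was 0.01 and the SD over genes 0.83. In total RNA the SD over genes was 0.21, with 8 genes 2-fold higher (0.0788%) and 1 lower (0.00985%). The 1 lower gene was FGFBP1, which was named after its values were seen. In the heavy pool of WT cells 1607 genes (15.8%) were 2-fold higher and 223 (2.2%) lower, and the SD was 0.77. In the light pool of eIF4G1-silenced cells the SD was 0.32, with 23 genes (0.226%) 2-fold higher and 112 (1.1%) lower. Intensities are relative within an array and carry no measure of how much RNA a pool held, so a higher value cannot be told apart from a loss of other mRNAs from the pool. Nor can fewer cells of a kind and less RNA per cell be told apart.

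**Figure D1:**
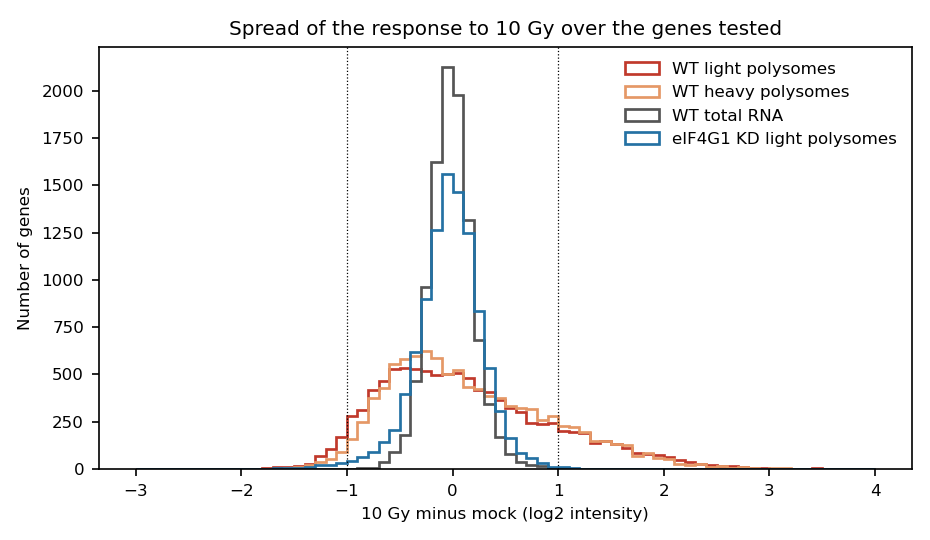
Histogram of the log2 difference, 10 Gy minus mock, over the 10157 genes kept, for 4 comparisons of 1 array with 1 array; dotted lines mark a 2-fold difference. The WT light and heavy polysome curves are broad, with SDs of 0.83 and 0.77 and a long tail above 0, while WT total RNA and the knockdown light pool are narrow, with SDs of 0.21 and 0.32.

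The 1620 genes with a higher light pool value had a median difference of 1.46 there, 1.14 in the heavy pool, 0.00 in total RNA and 0.03 in the knockdown light pool. Their median intensity was 323 in the light pool after 10 Gy, against 105 in mock. In total RNA the same genes had medians of 453 after 10 Gy and 444 in mock. In the knockdown light pool they had 210 after 10 Gy and 201 in mock. The WT light value after 10 Gy was above both knockdown values and the WT mock value below both. The genes were chosen by the gap between the WT light arrays, which favours this order and low mock values. In 1177 of the 1620 genes the WT mock light array was the lowest of all 12, and in 546 its value was below the filter level of 64. Where either light pool value of a gene named below is under 64, its difference has no exact size. Of the 1620, 979 (60.4%) were also 2-fold higher in the heavy pool and 6 in total RNA. The 421 genes with a lower value had medians of -1.13 in the light pool, -0.66 in the heavy pool, -0.13 in total RNA and -0.16 in the knockdown light pool. Their median intensity was 195 after 10 Gy and 438 in mock.

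Genes with several probe sets allowed a check within the same pair of arrays. Of 1238 further probe sets of genes called higher, 1131 (91.4%) also read higher, and of 153 further probe sets of genes called lower, 129 (84.3%) also read lower. They reached 2-fold in that direction in 57.5% and 34.6% of cases. For genes not called, 3401 of 4383 further probe sets (77.6%) had the sign of the main one.

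Genes that p53 activates stood at the top of the light pool response. Of 35 measured p53 target genes, 17 (48.6%) were at least 2-fold higher after 10 Gy than in mock, beside 15.9% of all genes, and 0 were 2-fold lower. Their median difference was 1.00 in the light pool and 0.89 in the heavy pool, against medians over all genes of 0.01 and 0.03. It was 0.37 in total RNA and 0.50 in the knockdown light pool. Of the 35 genes, 31 lay above 0 in the light pool, beside 5152 of all 10157 genes. The count was also 31 in the heavy pool, in total RNA and in the knockdown light pool, so the sign was not particular to the light pool. In size, 25 of the 35 had a larger difference in the light pool than in total RNA, and 25 a larger one than in the knockdown light pool. Of the 17 genes, 14 were also 2-fold higher in the WT heavy pool, 2 in total RNA and 2 in the knockdown light pool. The mock light array was the lowest of the 12 for 9 of the 17.

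ZMAT3, a zinc finger protein that binds RNA and acts in growth arrest, had an intensity of 1364 in the light pool after 10 Gy and 120 in mock. The difference was 3.50. In the heavy pool ZMAT3 had 947 after 10 Gy and 251 in mock, in total RNA 1459 after 10 Gy and 1087 in mock, and in the knockdown light pool 1075 after 10 Gy and 756 in mock. The WT mock light value was the low one, the next lowest of these 8 being 251. Its 3 further probe sets gave differences of 2.40 to 2.83. RRM2B, the p53-induced subunit of ribonucleotide reductase that supplies nucleotides for repair, had 1356 after 10 Gy and 122 in mock (3.47). In total RNA it had 687 after 10 Gy and 493 in mock (0.48), and in the knockdown light pool 411 after 10 Gy and 256 in mock (0.69).

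MDM2, the ubiquitin ligase that degrades p53 and so closes a feedback loop, had 1522 in the light pool after 10 Gy and 224 in mock (2.76). In the heavy pool it had 1293 after 10 Gy and 229 in mock (2.50), in total RNA 1861 after 10 Gy and 1209 in mock (0.62), and in the knockdown light pool 1137 after 10 Gy and 660 in mock (0.78). Of its 3 further probe sets, 2 went the same way, within a range of -0.17 to 3.24. PPM1D, the phosphatase that shuts the damage signal off, had 290 after 10 Gy and 120 in mock (1.27). TP53INP1, a p53-induced protein that acts in stress-induced cell death, had 467 after 10 Gy and 73.7 in mock (2.66). FAS, the death receptor, had 320 after 10 Gy and 112 in mock (1.51), and its 3 further probe sets gave 1.05 to 2.10. PMAIP1, which encodes the death-promoting BCL2 family protein NOXA, had 566 after 10 Gy and 261 in mock (1.12). Feedback regulators and some death genes thus stood among the 17 side by side. Other death genes of the list were within 2-fold, including APAF1 (0.77), TNFRSF10A (0.41), BAX (0.37) and TNFRSF10B (0.34). The further probe sets of TNFRSF10A and TNFRSF10B read lower after 10 Gy.

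CDKN1A, which encodes the cell cycle inhibitor p21, showed another order of fractions. Its light pool intensity was 2968 after 10 Gy and 2175 in mock, a difference of 0.45 that is below 2-fold. In total RNA it had 2047 after 10 Gy and 1184 in mock (0.79), and in the knockdown light pool 4504 after 10 Gy and 2482 in mock (0.86). Its difference was therefore larger in total RNA than in light polysomes, unlike that of ZMAT3, RRM2B and MDM2. DDB2, a damage-binding protein of nucleotide excision repair, had 1490 after 10 Gy and 1123 in mock in the light pool (0.41), and 1043 after 10 Gy and 604 in mock in total RNA (0.79). GDF15, a secreted stress cytokine, was 2-fold higher in each of these comparisons: 368 after 10 Gy and 107 in mock in the light pool (1.78), 364 after 10 Gy and 143 in mock in total RNA (1.35), and 776 after 10 Gy and 243 in mock in the knockdown light pool (1.68). The lowest members were PHLDA3, an inhibitor of AKT, with 477 after 10 Gy and 771 in mock (-0.69), AEN, a nuclease, with 714 after 10 Gy and 1035 in mock (-0.54), and SFN, the 14-3-3 sigma protein, with 16907 after 10 Gy and 20080 in mock (-0.25). PHLDA3 differed by 0.47 in total RNA, and its further probe set gave 0.10 in the light pool. KITLG, the ligand of the KIT receptor, had 240 after 10 Gy and 34.4 in mock (2.80), with 234 after 10 Gy and 244 in mock in total RNA (-0.06). DRAM1, an autophagy regulator, lay just under the 2-fold limit with 237 after 10 Gy and 119 in mock.

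**Figure D2:**
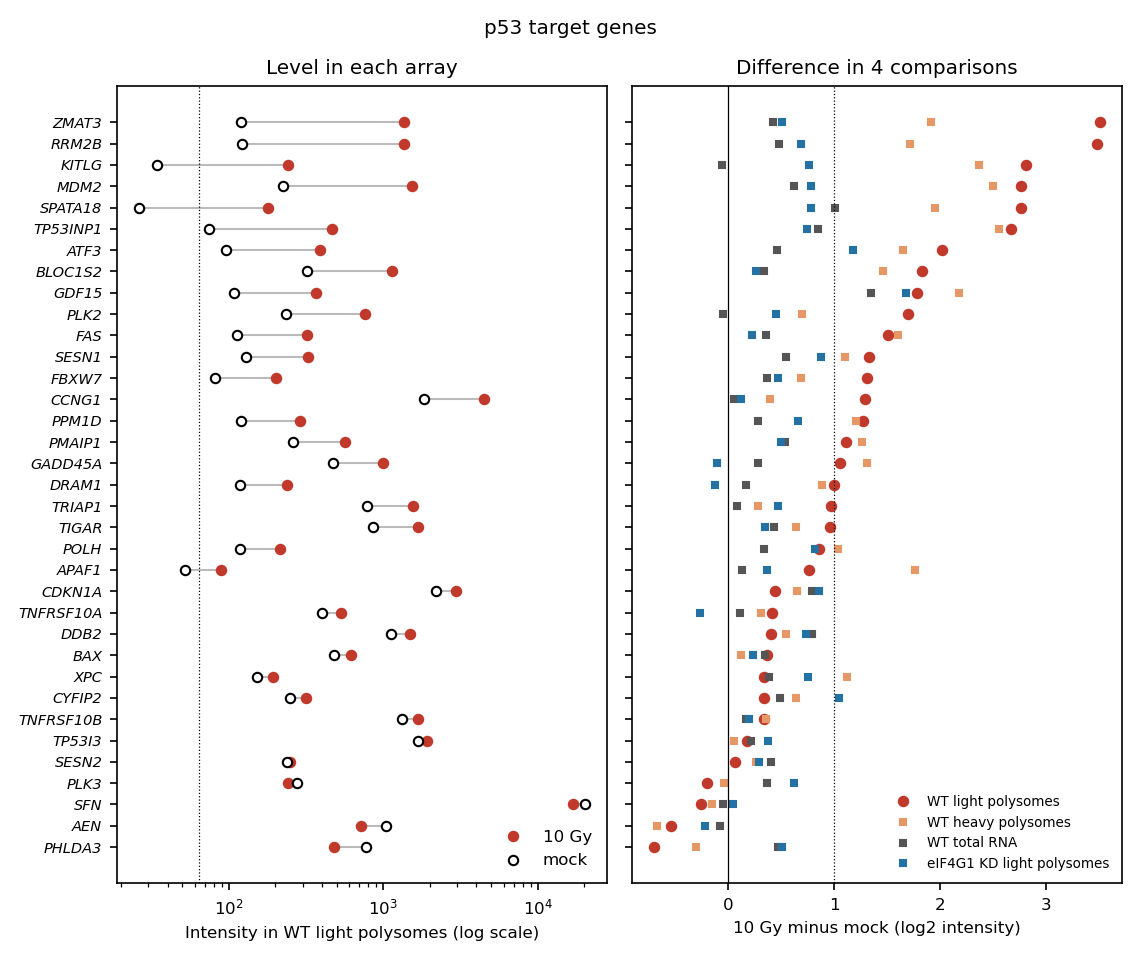
Left, intensity of 35 p53 target genes in WT light polysomes after 10 Gy (filled) and in mock (open), on a log axis with the filter level of 64 dotted; right, the log2 difference, 10 Gy minus mock, in 4 comparisons, with 2-fold dotted. In the left panel 31 filled points lie to the right of the open ones, and in the right panel the light polysome points of ZMAT3 (3.50) and RRM2B (3.47) lie far beyond their total RNA points (0.43 and 0.48), while CDKN1A does not (0.45 and 0.79).

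Genes outside that list reached the same size. PTP4A1, a phosphatase that is involved in cell growth, had 1817 in the light pool after 10 Gy and 170 in mock (3.42). Total RNA held 2041 after 10 Gy and 2597 in mock (-0.35), so the light pool and total RNA differed in sign. Its 3 further probe sets gave 1.87 to 3.24 in the light pool. PTBP3, an RNA-binding regulator of splicing, had 2145 after 10 Gy and 273 in mock (2.97), against 1676 after 10 Gy and 1837 in mock in total RNA (-0.13). RPS6KB1, the S6 kinase that acts downstream of mTOR, had 414 after 10 Gy and 52.4 in mock (2.98), against 421 after 10 Gy and 461 in mock in total RNA (-0.13). BLOC1S6, a subunit of a complex that forms lysosome-related organelles, had 546 after 10 Gy and 70.9 in mock (2.94). SIKE1, a suppressor of innate immune kinases, had 505 after 10 Gy and 46.6 in mock (3.44). TAB3, an adaptor of the TAK1 kinase, had 682 after 10 Gy and 86.6 in mock (2.98), and DAAM1, a formin that assembles actin, 447 after 10 Gy and 54.1 in mock (3.05). With the median of all its probe sets DAAM1 gave 0.43, below 2-fold. C21orf91 had 662 after 10 Gy and 70.8 in mock (3.22), and TMEM263 1143 after 10 Gy and 158 in mock (2.85). MAP3K2, a kinase of MAP kinase cascades, had 348 after 10 Gy and 48.3 in mock (2.85), but its further probe set gave only 0.26. The mock values of RPS6KB1, SIKE1, DAAM1 and MAP3K2 were below the filter level of 64, so their differences have no exact size. The 14 highest genes were taken among those with a mean log2 of at least 7 in the light pools and agreeing probe sets; without that limit DNAJB14, a chaperone cofactor with 219 after 10 Gy and 16.5 in mock, was highest. For all 14, the heavy pool difference was also above 1, from 1.46 in PTP4A1 to 3.61 in INHBA. In total RNA none of the 14 reached 1, the highest being 0.62 in INHBA.

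The lowest differences belonged to genes of several kinds. CCNA1, a cyclin, had 98.2 in the light pool after 10 Gy and 403 in mock (-2.04). H1-2, a linker histone, had 78.2 after 10 Gy and 299 in mock (-1.93), while total RNA held 182 after 10 Gy and 131 in mock (0.48). H1-10, another linker histone, had 303 after 10 Gy and 966 in mock (-1.67), and 184 after 10 Gy and 270.5 in mock in total RNA (-0.55). E2F2, a transcription factor that drives S phase genes, had 130 after 10 Gy and 436 in mock (-1.75). MCM5, a subunit of the replicative helicase, had 411 after 10 Gy and 1360 in mock (-1.73), and its further probe set gave -1.71. The remaining lowest genes were PIGO, CTC1, THOC6, ZNF628, C15orf39, GNB1L, PFAS, SLC5A6 and CTU2, with differences from -1.90 to -1.66. PIGO acts in making glycosylphosphatidylinositol anchors, CTC1 in telomere maintenance, THOC6 in mRNA export and PFAS in purine synthesis. When a gene was given the median over its probe sets, dim ones included, PIGO gave -0.81, C15orf39 -0.72 and CTU2 0.22, so that these 3 were no longer 2-fold lower.

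**Figure D3:**
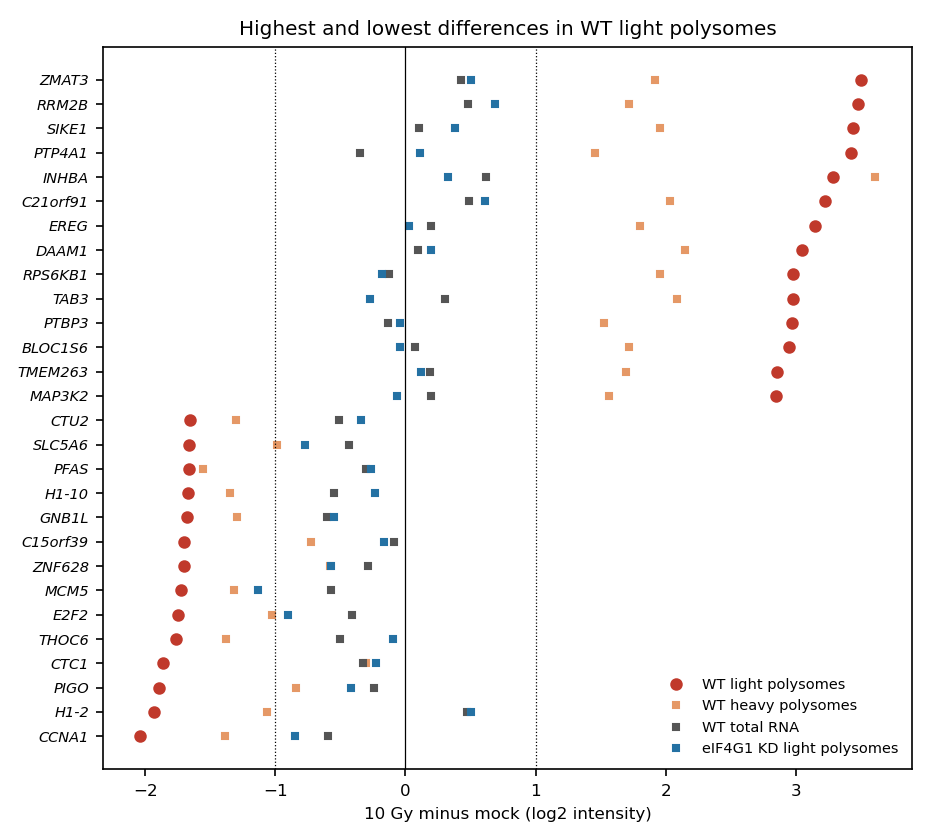
Log2 difference, 10 Gy minus mock, for the 14 highest and 14 lowest genes by WT light polysome response among genes with a mean log2 of at least 7 there and agreeing probe sets, in 4 comparisons of 1 array with 1 array; dotted lines mark 2-fold. The 14 highest genes lie from 2.85 to 3.50 in WT light polysomes and above 1 in WT heavy polysomes, and below 1 in WT total RNA and in the knockdown light pool.

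DNA replication genes were split. Their median was 0.12, or -0.10 with loess, and 27 of 50 lay above 0. Of the 50, 7 (14%) were 2-fold lower after 10 Gy, beside 4.14% of all genes, and 5 (10%) were 2-fold higher, beside 15.9%. Of the 7 lower genes, 5 encode subunits of the MCM2-7 helicase, which unwinds DNA ahead of the replication fork; MCM3, MCM4 and MCM7 were named after their values were seen. MCM2 had 556 after 10 Gy and 1528 in mock (-1.46), and MCM6 567 after 10 Gy and 1489 in mock (-1.39). MCM7 had 975 after 10 Gy and 2306 in mock (-1.24), and MCM3 604 after 10 Gy and 1323 in mock (-1.13). The remaining subunit, MCM4, had 525 after 10 Gy and 814 in mock (-0.63), within 2-fold. In total RNA the 5 called genes differed by -0.36 in MCM7 to -0.84 in MCM6. Their differences in the knockdown light pool ran from -0.89 in MCM3 to -1.24 in MCM6. The 5 higher genes included DBF4, which activates the kinase that fires origins, with 734.5 after 10 Gy and 235 in mock (1.64), and ORC6, an origin recognition subunit, with 749 after 10 Gy and 329 in mock (1.19). DBF4 had 139 after 10 Gy and 251 in mock in the knockdown light pool (-0.85), and ORC6 136 after 10 Gy and 191 in mock (-0.49).

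Genes of mitosis had a median of 0.04 over 48 measured members, and 4 were 2-fold higher (8.33%). The median was 0.29 without probe sets whose names end in _x_at or _s_at. TOP2A, the topoisomerase that untangles chromosomes, had 332 after 10 Gy and 56.7 in mock (2.55), while total RNA held 1470 after 10 Gy and 1448 in mock (0.02). CDK1, the kinase that starts mitosis, had 4274 after 10 Gy and 1383 in mock (1.63), against 2778 after 10 Gy and 2351 in mock in total RNA (0.24). CDC20, an activator of the anaphase-promoting complex, was the 1 member 2-fold lower, with 3827 after 10 Gy and 7764 in mock (-1.02). In the knockdown light pool the median of the same 48 genes was -0.91, and 21 were 2-fold lower, beside 1.1% of all genes there. CDK1 had 517 after 10 Gy and 768 in mock there (-0.57), TOP2A 492 after 10 Gy and 685 in mock (-0.48), and CDC20 2200 after 10 Gy and 5944 in mock (-1.43). The difference between genotypes compares single arrays and was not tested.

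A further list held 35 measured cyclins, cyclin-dependent kinases, inhibitors, E2F factors and retinoblastoma relatives. Of the 35, 9 were 2-fold higher (25.7%), beside 15.9% of all genes, and 1 was lower, E2F2. Among the 9 were CCNT1, CCNT2, CCNL1 and CDK8, named after their values were seen, whose main roles lie in transcription and splicing. The share is thus not one of cell cycle genes alone. The list's median was 0.42, or 0.15 with the median of all probe sets. CDK6, a G1 kinase, had 2147 after 10 Gy and 584 in mock (1.88), and its 2 further probe sets gave 1.86 and 2.54. In total RNA CDK6 had 1933 after 10 Gy and 2034 in mock (-0.07). E2F3 had 465 after 10 Gy and 130 in mock (1.83), although its further probe set gave 0.21. RBL2, a relative of the retinoblastoma protein that restrains E2F factors, had 441 after 10 Gy and 141 in mock (1.64). CDKN1B, the inhibitor p27, had 1185 after 10 Gy and 513 in mock in the light pool (1.21) but differed by 0.13 in the heavy pool. CDK4 had 2542 after 10 Gy and 4730 in mock (-0.90), opposite in sign to CDK6.

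Repair genes did not move one way. Of 26 measured homologous recombination and Fanconi genes, 4 (15.4%) were 2-fold higher and 2 (7.69%) lower, near the shares of all genes. Their median of 0.55 was 0.14 with no filter or with log2 of at least 6 in both light arrays, 0.16 with values below 6 set to 6 and 0.31 with loess. The 2 lower members were RAD54L, a motor protein that helps strand exchange, with 177 after 10 Gy and 404 in mock (-1.19), and MUS81, a nuclease that cuts joined DNA molecules, with 642 after 10 Gy and 1355 in mock (-1.08). Of 31 excision and mismatch repair genes, 5 were higher (16.1%) and 1 lower (3.23%). RAD23B, which hands damaged DNA to excision repair, had 2963 after 10 Gy and 626 in mock (2.24), and its 2 further probe sets gave 1.61 and 1.95. TDG, a glycosylase that removes mispaired thymine, had 1187 after 10 Gy and 306 in mock (1.96), but its further probe set gave -0.14. Of 28 end joining and damage signalling genes, 4 were higher (14.3%) and 2 lower (7.14%). TOPBP1, which activates the checkpoint kinase ATR, had 343 after 10 Gy and 114 in mock (1.59). H2AX, the histone that is phosphorylated at breaks, had 1972 after 10 Gy and 4495 in mock (-1.19), with 1227 after 10 Gy and 1851 in mock in total RNA (-0.59). Of 14 measured histone genes, 3 were 2-fold lower (21.4%), beside 4.14% of all genes, and 0 higher. These were H1-2, H1-10 and H4C11, and the list's median was -0.46. Probe sets whose names end in _s_at or _x_at stand for H1-10 and H4C11, and without such probe sets the light pool median was 0.01. In the heavy pool 5 of the 14 histone genes were 2-fold lower, beside 2.2% of all genes there, and the median was -0.46. The 3 genes called in the light pool were among those 5.

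Secreted signals formed another group with high values. Of 20 measured genes in a list of epithelial cytokines and chemokines, 8 (40%) were 2-fold higher after 10 Gy, beside 15.9% of all genes. None was 2-fold lower, and the list's median was 0.55. The median ranged from 0.10 with no filter to 1.03 with a filter at log2 7. CXCL8, which attracts neutrophils, had 2497 in the light pool after 10 Gy and 543 in mock (2.20), against 2230 after 10 Gy and 1325 in mock in total RNA (0.75). CXCL8 had 796 after 10 Gy and 627 in mock in the knockdown light pool (0.35). CXCL3, a related chemokine, had 319 after 10 Gy and 54.1 in mock (2.56) in the WT light pool, against 182 after 10 Gy and 337 in mock in the knockdown light pool (-0.88). NFKBIZ, a nuclear regulator of NF-kappaB that is counted among the 8 but is not secreted, had 387 after 10 Gy and 72.1 in mock (2.42). CXCL2 had 1877 after 10 Gy and 481 in mock (1.96), CXCL1 2224 after 10 Gy and 782 in mock (1.51), and the interleukin IL1B 6668 after 10 Gy and 2592 in mock (1.36). Of the 8 genes, 6 were also 2-fold higher in the heavy pool, 0 in total RNA and 0 in the knockdown light pool. The WT mock light array was the lowest of the 12 for 2 of the 8. The lowest member was CSF1, a macrophage growth factor, with 75.2 after 10 Gy and 108 in mock (-0.53).

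Growth factor genes showed single large values. EREG, the epidermal growth factor family ligand epiregulin, had 658 after 10 Gy and 74.3 in mock (3.15), with 387 after 10 Gy and 338 in mock in total RNA (0.20). EREG had 155 after 10 Gy and 153 in mock in the knockdown light pool (0.02). TGFA, another ligand of that receptor, had 764 after 10 Gy and 278 in mock (1.46), but its further probe set gave -0.24. ERRFI1, an inhibitor of the receptor, had 528 after 10 Gy and 90.8 in mock (2.54). Of the 10 measured members of that list 4 were 2-fold higher (40%), beside 15.9% of all genes, and 1 lower (10%), beside 4.14%. MET, a member of the 4 that was named after its values were seen, differed by 1.40, but its further probe set gave -0.43. The list's median of 0.64 was 0.17 with the median of all probe sets. It was 1.40 without probe sets whose names end in _x_at or _s_at. INHBA, the activin A subunit, had 1005 after 10 Gy and 103 in mock (3.29). In the heavy pool INHBA had 1224 after 10 Gy and 100.2 in mock (3.61), in total RNA 3047 after 10 Gy and 1987 in mock (0.62), and in the knockdown light pool 1554 after 10 Gy and 1241 in mock (0.33). Its WT mock polysome values were thus far below those of the other arrays. TGFBR1, the signalling receptor of TGF-beta, had 452 after 10 Gy and 112 in mock (2.01), and SKIL, which represses SMAD factors, 257 after 10 Gy and 70.2 in mock (1.87). Of 20 measured TGF-beta targets and ID factors, 5 were 2-fold higher (25%) and 0 lower.

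Stress and signalling lists differed among themselves. Of 31 immediate-early genes, 1 was 2-fold higher (3.23%) and 4 lower (12.9%), beside 15.9% and 4.14% of all genes. KLF6, a zinc finger transcription factor, had 3670 after 10 Gy and 808 in mock (2.18), and its 3 further probe sets gave 1.18 to 1.94. CCN2, a matrix protein induced by growth factors, had 177 after 10 Gy and 414 in mock (-1.22), and 207 after 10 Gy and 385 in mock in total RNA (-0.90). DUSP2 and DUSP5, phosphatases that switch off MAP kinases, had 130 after 10 Gy and 282 in mock (-1.12) and 270 after 10 Gy and 553 in mock (-1.03). SRF, a transcription factor of this response that was named after its values were seen, had 291 after 10 Gy and 584 in mock. ATF3, a stress-induced transcription factor that the p53 list holds, differed by 2.02. Of 28 interferon-stimulated genes, 3 were 2-fold higher (10.7%), led by TRIM22, an antiviral protein, with 273 after 10 Gy and 59.9 in mock (2.19) and with 743 after 10 Gy and 278 in mock in total RNA (1.42). Of 26 integrated stress response genes, 5 were higher (19.2%) and 2 lower (7.69%). The lower ones were SLC3A2, a subunit of amino acid transporters, with 469 after 10 Gy and 1082 in mock (-1.21), and PHGDH, an enzyme of serine synthesis, with 218 after 10 Gy and 495 in mock (-1.19). PPP1R15B, which restores initiation by directing dephosphorylation of eIF2, had 1114 after 10 Gy and 397 in mock (1.49) in the light pool and differed by 0.28 in the heavy pool.

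Ribosomal protein mRNAs were nearly level between the pools. They are among the most abundant mRNAs and many begin with a 5' terminal oligopyrimidine (TOP) tract, a C followed by pyrimidines, through which mTOR signalling controls their translation. Of 52 measured ribosomal protein genes, 0 were 2-fold higher and 0 lower after 10 Gy, with a median of 0.11 and a range from -0.46 in RPL27A to 0.63 in RPS24. Their summed intensity was 684810 after 10 Gy and 635000 in mock. Genes of such intensity spread less in general: among genes with a mean log2 intensity of 12 or more the SD of the difference was 0.40 and 1.55% were 2-fold higher. By RefSeq transcript starts on GRCh38.p14, 33 of 46 matched ribosomal protein genes (71.7%) begin with C and at least 4 further pyrimidines, against 465 of 8409 matched genes of all kinds (5.53%). The 465 genes with the tract had a median of -0.01 in the light pool, and 14% were 2-fold higher and 4.09% lower, near the shares of all genes. The first 24 bases of 6 such transcripts are shown because they share the tract while their light pool differences spread; capitals mark the tract, and the examples were chosen after their values were seen.
RPL18: CTCTTTCCggacctggccgagcag
RPS6: CTCTTTTCCgtggcgcctcggagg
RPS24: CTCTTTTCCTCCTTggctgtctga
EEF2: CTCTTCCgccgtcgtcgccgccat
NAP1L1: CTTTTTTagcgccatctgctcgcg
IPO7: CCTTTCgcgccggttgccgctgcg

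These lie at chr19:48619155-48619178 on the minus strand for RPL18, chr9:19380213-19380236 on the minus strand for RPS6, chr10:78033863-78033886 on the plus strand for RPS24, chr19:3985440-3985463 on the minus strand for EEF2, chr12:76084662-76084685 on the minus strand for NAP1L1 and chr11:9384652-9384675 on the plus strand for IPO7. RPL18 had 11452 after 10 Gy and 13571 in mock (-0.24), although its 2 further probe sets gave 0.12 and 0.14. RPS6, the substrate of the S6 kinase, had 14581 after 10 Gy and 9897 in mock (0.56), and its 2 further probe sets gave 0.38 and 0.55. RPS24, with the longest tract of the 6, had 10296 after 10 Gy and 6636 in mock (0.63). EEF2, which moves the ribosome along the mRNA, had 10506 after 10 Gy and 12699 in mock (-0.27). NAP1L1, a histone chaperone, had 2655 after 10 Gy and 1168 in mock (1.18), and its 5 further probe sets gave 1.07 to 2.02. IPO7, a nuclear import receptor, had 1166 after 10 Gy and 309 in mock (1.91), with 2452 after 10 Gy and 2377 in mock in total RNA (0.04). The ribosomal protein genes and EEF2 were thus within 2-fold, whereas the importin and the histone chaperone were beyond it. The tract has 6 bases in IPO7 and 7 in both NAP1L1 and EEF2. In the list of elongation factors and other TOP mRNAs, 4 of 16 were 2-fold higher (25%), namely IPO7, NAP1L1, PABPC1 and EIF4B, and 0 lower. PABPC1, the poly(A)-binding protein, had 12428 after 10 Gy and 5678 in mock (1.13), and EIF4B, a helper of the helicase that unwinds the 5' end, had 1804 after 10 Gy and 893 in mock (1.01).

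The translation machinery beyond ribosomal proteins was mixed. EIF4G1, the scaffold of the cap-binding complex and the gene silenced in the other arm, had 370 in the WT light pool after 10 Gy and 474 in mock (-0.36). In the knockdown light pool it had 87.2 after 10 Gy and 127 in mock (-0.54). Of 38 initiation factor genes, 6 were 2-fold higher (15.8%) and 0 lower. EIF5B, which joins the ribosomal subunits, had 95.2 after 10 Gy and 21.8 in mock, a value below the filter level of 64, so its difference has no exact size. Its 3 further probe sets gave 0.09 to 1.38. EIF3J, a loosely bound eIF3 subunit, had 1091 after 10 Gy and 446 in mock (1.29). EIF2B5 and EIF2B4, subunits of the factor that recharges eIF2, had 371 after 10 Gy and 643 in mock (-0.79) and 573 after 10 Gy and 964 in mock (-0.75). EIF3B, a core subunit of eIF3, had 2728 after 10 Gy and 4520 in mock (-0.73), and its 2 further probe sets gave -0.82 and -0.75.

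Other housekeeping complexes held few members called higher. Of 67 nuclear genes of oxidative phosphorylation, 1 was 2-fold higher (1.49%) and 0 lower, and of 33 proteasome subunit genes 0 were called either way. Of 73 mitochondrial ribosomal protein genes, 2 were higher (2.74%) and 3 lower (4.11%), beside 15.9% and 4.14% of all genes. Among genes with a mean log2 intensity of 10 to 12, where the medians of these lists lay, 8.68% were higher and 2.74% lower. MRPL38, a subunit of the large mitochondrial ribosome, had 288 after 10 Gy and 708 in mock (-1.30), and MRPL30 had 814.5 after 10 Gy and 335.5 in mock (1.28). The 7 transcripts encoded by the mitochondrial genome, which cytosolic ribosomes do not translate, had a median of -0.42. ND4, a subunit of respiratory complex I, had 2427 after 10 Gy and 3279 in mock (-0.43), with 18130 after 10 Gy and 18115 in mock in total RNA (0.00). Of 20 glycolysis genes, 17 lay below 0, with a median of -0.44. PKM, the pyruvate kinase, had 1328 after 10 Gy and 2474 in mock (-0.90), and SLC2A1, a glucose transporter, had 58.5 after 10 Gy and 131 in mock (-1.16). PDK1, a kinase that inhibits pyruvate dehydrogenase, was the 1 member 2-fold higher, at 286 after 10 Gy and 51.8 in mock (2.46), but its further probe set gave 0.28.

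**Figure D4:**
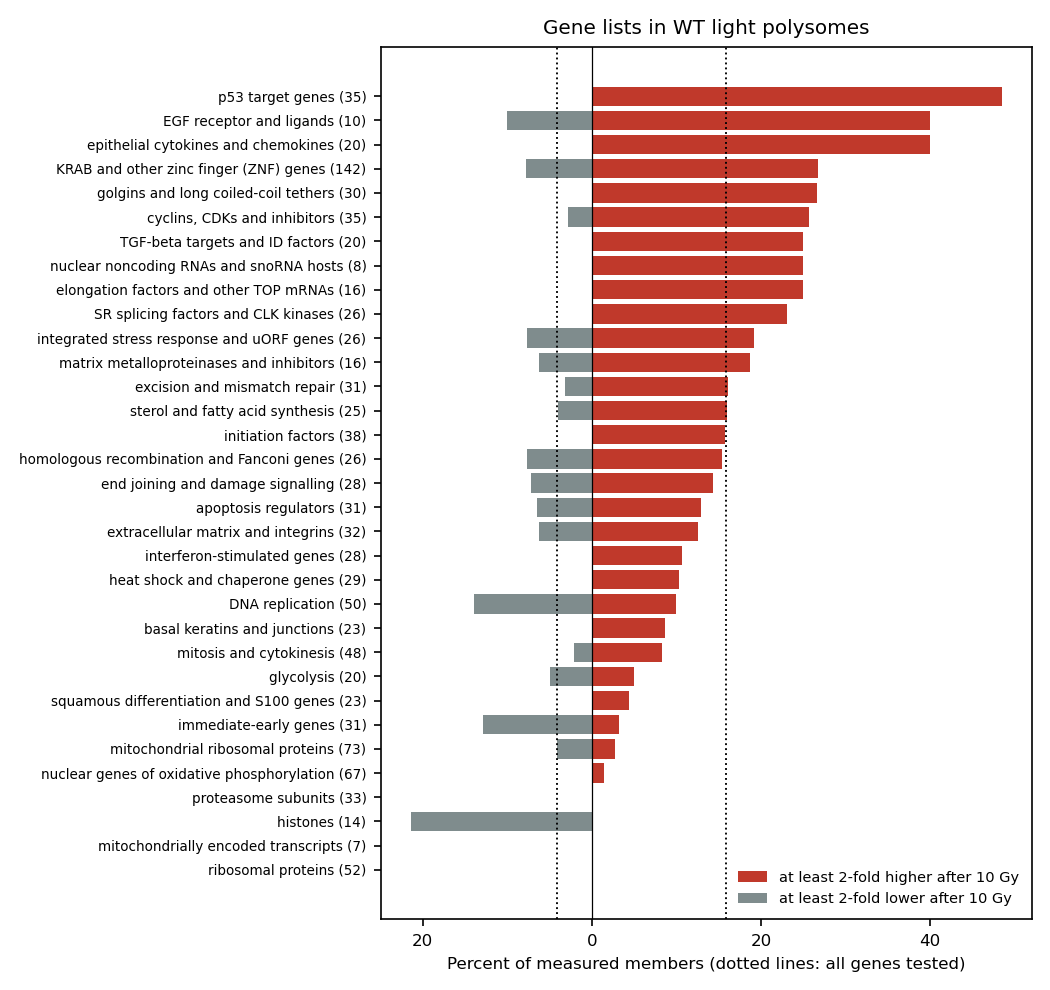
Percent of the measured members (number in brackets) of 33 gene lists that were at least 2-fold higher (right) or lower (left) in WT light polysomes after 10 Gy than in mock; dotted lines give the 15.9% and 4.14% of all genes. p53 targets have the longest bar to the right (48.6%), histones the longest to the left (21.4%), and ribosomal proteins and proteasome subunits have none.

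Among regulators of RNA and transcription, of 26 SR splicing factors and CLK kinases, 6 were 2-fold higher (23.1%) and 0 lower. CLK1 and CLK4, kinases that phosphorylate SR proteins, had 123 after 10 Gy and 40.7 in mock (1.60) and 192 after 10 Gy and 64.9 in mock (1.57). Of 142 zinc finger (ZNF) genes, 38 were higher (26.8%) and 11 lower (7.75%), both above the background. Their median mean log2 intensity was 6.96 in the light pools, and for 25 of the 38 the mock value was below the filter level. ZNF664 had 627 after 10 Gy and 128 in mock (2.30). ZNF655 had 384 after 10 Gy and 49.6 in mock (2.95), but its further probe set gave -0.57. Of 8 nuclear noncoding RNAs and snoRNA hosts, 2 were higher, OIP5-AS1 with 551 after 10 Gy and 81.5 in mock (2.76) and TUG1 with 250.3 after 10 Gy and 73.8 in mock (1.76). Both keep that sign in their 2 further probe sets each.

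The light and heavy pools parted most in the genes of long coiled-coil proteins. Of 30 genes of golgins and other long coiled-coil proteins, 8 (26.7%) were 2-fold higher in the light pool, beside 15.9% of all genes. In the heavy pool 23 of the 30 were 2-fold higher, beside 15.8% of all genes there, and all 8 were among the 23. Medians of the 30 genes were 0.60 in the light pool and 1.70 in the heavy pool, against 0.06 in total RNA. The light pool median was 0.32 with log2 of at least 6 in both light arrays and 0.34 with the median of probe sets. It was 0.31 without probe sets whose names end in _x_at or _s_at, 0.16 with loess and 0.00 with values below 6 set to 6. These genes were dim, with a median mean log2 intensity of 6.31 in the light pools, and the part of low signal in the gap between the pools was not tested. GOLGA5 had 663 after 10 Gy and 213 in mock in the light pool (1.64), with 1.23 in the heavy pool. TRIP11, a golgin that organises the Golgi, had light pool values of 7.61 and 14.1, both far below the filter level, and differed by 3.06 in the heavy pool. GOLGA4, which was named after its values were seen, differed by 1.01 in the light pool and 2.77 in the heavy pool. Over all genes, 291 (2.87%) had a light pool response at least 2-fold above the heavy pool response, and 446 (4.39%) one at least 2-fold below it.

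The response also varied with the length of the gene. Genes called higher had a median RefSeq genomic span of 53.6 kb, genes called lower 16.3 kb, and the others 26.8 kb. When genes were put in 10 bins of equal size by span, 3.35% of the shortest bin were 2-fold higher after 10 Gy, against 28.0% of the ninth and 24.5% of the longest bin. The share 2-fold lower was 6.99% in the shortest and 1.67% in the longest bin. The median light pool difference was -0.29 in the shortest bin and 0.36 in the longest, and the heavy pool medians were -0.36 and 0.66. The gap between those light pool medians, 0.64, was 0.17 with no filter and 0.44 with values below 6 set to 6. The medians were -0.02 and 0.00 in total RNA, and -0.01 and 0.09 in the knockdown light pool. The shortest bin was also brighter, with a median mean log2 intensity of 8.58 in the light pools against 7.04 in the longest, and the part of intensity in this trend was not tested. Span is the length on the chromosome with introns, not the coding length that sets how many ribosomes an mRNA can hold.

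**Figure D5:**
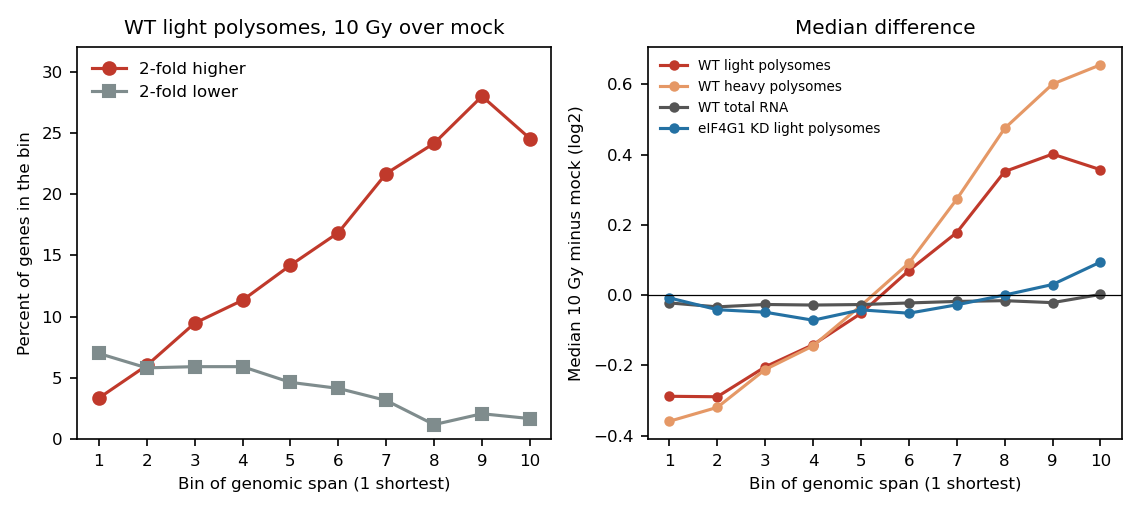
Genes in 10 bins of RefSeq genomic span from shortest to longest, 1015 or 1016 in each: left, percent of genes at least 2-fold higher or lower in WT light polysomes after 10 Gy than in mock; right, median log2 difference in 4 comparisons. The share higher is 3.35% in the first bin and 24.5% in the last, and the medians of both WT polysome pools climb with span while WT total RNA and the knockdown light pool stay near 0.

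Set against total RNA, the light pool counts hardly changed. The difference in the light pool minus that in total RNA was at least 1 for 1643 genes (16.2%) and at most -1 for 393 (3.87%). Among genes above the filter level in all 4 arrays, the highest were PTP4A1 (3.77), PTBP3 (3.11), ZMAT3 (3.08), RRM2B (3.00), EREG (2.95) and BLOC1S6 (2.87). The lowest were H1-2 (-2.41), MOGS (-1.77), PIGO (-1.65), C15orf39 (-1.62), CTC1 (-1.54) and PIEZO1 (-1.53). MOGS, which trims sugars from new glycoproteins, had 96.1 in the light pool after 10 Gy and 300.1 in mock (-1.64), with 294 after 10 Gy and 270 in mock in total RNA (0.13). PIEZO1, a channel opened by membrane stretch, had 228 after 10 Gy and 554 in mock (-1.28), with 877 after 10 Gy and 739 in mock in total RNA (0.25).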

How the data were processed

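RNA of 12 samples was hybridised to arrays with 54675 probe sets. The deposited intensities are linear values made with RMA, per the submitters' processing notes (version and arrays normalised as a set: not given in the sources used here). They ran from 4.29 to 26385 with none missing and were converted to log2. Probe sets were named through the platform annotation: 41097 had 1 symbol, 1801 several and 11777 were not listed. Each of 19775 genes was represented by its brightest single-symbol probe set (mean log2 of the 12 arrays). The 10157 genes with log2 of at least 6 (an intensity of 64) in at least 4 arrays were kept. Differences are 10 Gy minus mock on the log2 scale, 1 array a side, so no test was possible. Genes at or beyond 2-fold were counted, and lists are described by counts and medians. The number of arrays limits the precision. Scripts used Python 3.11.15, pandas 2.3.3, numpy 2.4.6 and statsmodels 0.14.6 and were tested on simulated data.

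The comparison, the 33 gene lists, the 5 marker lists and the rules were chosen with earlier results of these data known. Named genes are the 14 highest and 14 lowest light pool differences among genes whose 2 light arrays average log2 of at least 7 and whose further probe sets (mean log2 of at least 6) all go the same way, the 6 highest and 6 lowest responses relative to total RNA among genes with log2 of at least 6 in all 4 arrays, up to 3 highest and 3 lowest members of each list, and EIF4G1, MDM2 and CDKN1A. A gene that the rule also names is not reported here. Transcript starts came from RefSeq. A planned comparison by protein length was not made, because no protein table was used here, and genomic span replaced it after the data were seen. Alternatives were other filters, other choices of probe set, centring, a loess fit (span 0.3), a floor at log2 6, a 1.5-fold limit and the heavy pool in place of total RNA.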

Additional observations from a re-analysis of the deposited data

Results flagged for a closer look

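In the light pools, 13 genes were at least 2-fold higher after 10 Gy in WT cells and at least 2-fold lower in eIF4G1-silenced cells, and 8 of them were at or above the filter level in all 4 light arrays. They are 0.80% of the 1620 genes higher in WT, and another 13 of the 1620 were 2-fold higher in the knockdown too. Over all genes, 1.1% were 2-fold lower and 0.226% higher in the knockdown light pool. The genes of opposite sign were chosen for it, each genotype has 1 array for each condition, and the difference between genotypes was not tested. The log2 difference, 10 Gy minus mock, was 1.60 in WT and -1.70 in knockdown light polysomes for CENPU, a kinetochore protein, whose intensity was 686 after 10 Gy and 227 in mock in WT, and 77.2 after 10 Gy and 251 in mock in the knockdown. It was 1.24 in WT and -1.13 in the knockdown for NEK2, a kinase that separates centrosomes, 1.13 in WT and -1.25 in the knockdown for PBK, a mitotic kinase, and 1.23 in WT and -1.08 in the knockdown for DEPDC1, a gene of dividing cells. In total RNA CENPU, NEK2, PBK and DEPDC1 differed by -0.16, 0.05, -0.01 and 0.14 in WT, against -1.15, -1.28, -1.16 and -1.38 in the knockdown. For RAD23B, an excision repair factor, it was 2.24 in WT and -1.60 in knockdown light polysomes, with -0.20 in WT total RNA and -0.03 in knockdown total RNA. For CTSZ, a lysosomal protease, it was 1.22 in WT and -1.48 in the knockdown, and its further probe set gave -0.16 in WT. PPP3R1, the regulatory subunit of calcineurin, gave 1.31 in WT and -1.07 in the knockdown, and SGMS2, a sphingomyelin synthase, 1.42 in WT and -1.06 in the knockdown.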

How the results depend on the processing

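The count of genes higher in light polysomes, 1620 (15.9% of the genes tested), was 1074 (12.3%) with log2 of at least 6 in both light arrays, 1011 (12.9%) with the median over a gene's probe sets and 2693 (26.5%) at 1.5-fold. The count lower, 421 (4.14%), was 274 (3.78%) without probe sets whose names end in _x_at or _s_at and 1982 (19.5%) at 1.5-fold. Of the responses relative to total RNA, the 1643 higher became 291 against the heavy pool, and the 393 lower (3.87%) became 592 (2.99%) with no filter and 261 (3.32%) with the median of probe sets. The longest minus the shortest of 10 bins of span, 0.64, was 0.17 with no filter and 0.44 with values below 6 set to 6; the cause was not tested. Centring and loess kept all these counts within 1.5-fold. The median of the p53 targets stayed between 0.85 and 1.03. Of the alternative medians of all lists, 226 moved by less than 0.2 and 37 by more. Of 81 alternative values of 33 named genes, 80 kept their sign, and 73 of the 77 values of genes called 2-fold stayed 2-fold. With the median of probe sets CTU2 became 0.22, PIGO -0.81, C15orf39 -0.72 and DAAM1 0.43; the cause was not tested. No paired analysis was possible because each group has a single array. Leaving out a replicate was not possible for the same reason. The comparison by protein length was not run, and the floor was not applied to the response relative to total RNA. Intensities near the filter level limit what can be said of dim genes, since 546 of the 1620 were below it in mock and 99 in both arrays.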
